A study of Homo sapiens with 8 samples.

Results

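The miR-99/100 family is a group of microRNAs that share their seed, the stretch near the 5′ end that pairs with target mRNAs. A microRNA hairpin yields a 5p and a 3p product, named after the arm of the stem from which each is cut. One of them is usually loaded into Argonaute and kept, while the other is mostly degraded. The family is known for targeting MTOR and other genes of the growth signalling pathway, and its hairpins lie in genomic clusters with let-7 and miR-125 hairpins. Members were chosen by name: the mature products of the hairpins miR-99a, miR-99b and miR-100 that have a row in the deposited count table. All 6 products were listed, out of 3112 miRNAs in the table, of which 1482 are known miRNAs and the rest are numbered predictions of the authors. The difference between the groups did not enter the rule, but earlier results of these data were known when the family was picked.

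Small RNA was sequenced from 786O cells, an established ccRCC line (clear cell renal cell carcinoma, human) that lacks functional VHL. The 4 NC samples received a control plasmid and the 4 circSOD2-sh samples a plasmid expressing a short hairpin RNA against circSOD2, a circular RNA of the SOD2 gene. The labels describe transfection with Lipofectamine 3000 and RNA extraction after 48 h, whereas the methods of the study describe lentiviral knockdown with puromycin selection. All samples come from 1 line, and neither the shRNA used nor separate cultures are named, so p-values measure the spread between these samples, which may be technical. The level of circSOD2 was not analysed here.

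The NC libraries had 6386872 to 9245044 listed counts each, and the circSOD2-sh libraries 3743860 to 4208276. Known miRNAs took 36.2% to 41.9% of these for NC, against 95.1% to 96.5% for circSOD2-sh. The rest of NC was mostly 1 predicted miRNA, with 54.3% to 59.1% of its listed counts, against 0.0628% to 0.105% of circSOD2-sh. Levels below are therefore CPM over the effective library size after TMM scaling (normalized CPM), which sets aside a few dominant species. Without that step, with counts divided by library totals, the median log2 fold change of all miRNAs tested was 0.96 in place of 0.00. Of the 8 libraries, 2 also stood apart in markers of other cells. Summed neural markers were 476 to 561 normalized CPM in 7 libraries and 5254 in circSOD2-sh replicate 2, with miR-124-3p at 3217 there and at most 3.01 elsewhere. Smooth muscle and fibroblast markers were 7.39 to 13.4 in 6 libraries, 228 in circSOD2-sh replicate 2 and 557 in NC replicate 4. Summed kidney tubule markers were 300 to 399 in 7 libraries and 1065 in NC replicate 4. Most of this sum was miR-192-5p, at 269 to 361 in 7 libraries and 953 in NC replicate 4. The tubule markers miR-194-5p and miR-215-5p were also highest there. The tubule marker miR-204-5p was instead highest in circSOD2-sh replicate 2, at 28.96 against at most 1.53 elsewhere. The hypoxia-responsive miRNA miR-210-3p was present at 13.9 to 27.0 in every library. Summed leukocyte markers were 1.19 to 3.21 except for 17.1 in NC replicate 4 and 14.7 in circSOD2-sh replicate 2. These sums were mostly miR-142-5p, at 16.0 and 8.12, respectively, and miR-150-5p, at 6.36 in circSOD2-sh replicate 2. The leukocyte marker miR-223-3p was at 0 in both libraries. Erythroid markers were at most 23.8 except for 114 in NC replicate 4 and 39.9 in circSOD2-sh replicate 2. Summed muscle markers were 41.1 in NC replicate 4 and 9.38 to 29.1 elsewhere. Of their members, miR-206 and miR-133a-3p were highest in NC replicate 4, at 24.3 and 10.1, whereas miR-1-3p was lowest there, at 6.74. The fold changes and ratios of the family were therefore also computed without these 2 libraries.

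The mature sequences, taken from RefSeq (GRCh38.p14), are shown first because the members differ by so few bases that their counts can be confused. All 6 products matched an entry and all are 22 bases long. Capitals mark the seed, bases 2 to 8 counted from the 5′ end.
hsa-miR-100-5p: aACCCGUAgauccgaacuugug
hsa-miR-99a-5p: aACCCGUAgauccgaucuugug
hsa-miR-99b-5p: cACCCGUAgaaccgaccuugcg
hsa-miR-99a-3p: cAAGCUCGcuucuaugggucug
hsa-miR-99b-3p: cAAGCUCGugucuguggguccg
hsa-miR-100-3p: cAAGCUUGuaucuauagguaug

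The 5p arms have 1 seed in common, and no other of the 2370 mature miRNAs in the RefSeq table carries it. The product miR-99a-5p differs from miR-100-5p by the single substitution A16U, outside the seed, with miR-100-5p given first and positions counted from the 5′ end. The product miR-99b-5p differs from miR-100-5p at 4 positions, A1C, U11A, A16C and U21C, none in the seed. Among the 3p arms, miR-99a-3p and miR-99b-3p share a seed, while miR-100-3p differs from both inside it by U7C. The relative miR-10a-5p reads uACCCUGUagauccgaauuugug. Its seed is ACCCUGU, and the ACCCGUA of the family does not occur in it.

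The hairpins are shown to place both arms on their precursor, with the 2 mature products in capitals.
MIR100: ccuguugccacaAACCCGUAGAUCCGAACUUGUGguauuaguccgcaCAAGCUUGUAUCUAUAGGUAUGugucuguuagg
MIR99A: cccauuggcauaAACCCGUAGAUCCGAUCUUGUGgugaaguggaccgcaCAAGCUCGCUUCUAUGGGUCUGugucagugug
MIR99B: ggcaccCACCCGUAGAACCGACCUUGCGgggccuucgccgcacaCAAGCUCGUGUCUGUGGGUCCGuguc

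MIR100 lies at chr11:122152229-122152308 on the minus strand, in an intron of the long non-coding RNA gene MIR100HG. MIR99A lies at chr21:16539089-16539169 on the plus strand, in an intron of the long non-coding RNA gene MIR99AHG. MIR99B lies at chr19:51692612-51692681 on the plus strand, in an intron of the protein-coding gene SPACA6 and over an exon of the antisense gene SPACA6P-AS. These annotations are from GENCODE release 29 on GRCh38. The nearest let-7 hairpin is 5635 bp from MIR100, 658 bp from MIR99A and 104 bp from MIR99B. The miR-125 hairpin of each cluster lies 52384 bp, 51067 bp and 572 bp away, respectively.

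The comparison of circSOD2-sh with NC asked how miRNA levels differed after circSOD2 was targeted. All 3 of the 5p arms rose in circSOD2-sh, and none of the 3p arms passed the test. The most abundant arm, miR-100-5p, rose 6.92-fold, miR-99a-5p rose 3.12-fold and miR-99b-5p rose 1.74-fold. The low-count filter left 895 miRNAs, the 6 arms among them. Of these, 33.3% were called higher and 32.4% lower at an adjusted p under 0.05, so a call alone was common in this experiment. Members were picked with results known, so their p-values are not independent support.

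For miR-100-5p, the dominant member throughout, the NC libraries gave 123446, 122200, 111988 and 79731 counts, and the circSOD2-sh libraries 777180, 704013, 689880 and 689864. In normalized CPM these were 18935, 18813, 19097 and 17920 against 132093, 124301, 138434 and 122705. Every circSOD2-sh library was far above every NC library, and the replicates of a group lay close together. The means were 18691 ± 527 in NC and 129383 ± 7296 in circSOD2-sh (SD, n = 4 each). The log2 fold change was 2.79 ± 0.06 (SE; 95% confidence interval 2.65 to 2.94; edgeR adjusted p = 4.50e-10).

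The next in abundance, miR-99b-5p, had 6206, 6469, 6361 and 6375 normalized CPM in NC and 10674, 10952, 12118 and 10440 in circSOD2-sh. The groups did not overlap, as was the case, with circSOD2-sh above NC, for 28.5% of all miRNAs tested. The means were 6353 ± 109 in NC and 11046 ± 745 in circSOD2-sh (SD, n = 4 each). The log2 fold change was 0.80 ± 0.07 (SE; edgeR adjusted p = 2.15e-06), the smallest of the 5p arms.

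The remaining 5p arm, miR-99a-5p, had 2012, 1996, 2141 and 2473 normalized CPM in NC and 6185, 8307, 6419 and 6031 in circSOD2-sh. The groups did not overlap, but NC replicate 4 and circSOD2-sh replicate 2 were the highest of their groups. The means were 2156 ± 222 in NC and 6736 ± 1060 in circSOD2-sh (SD, n = 4 each). The log2 fold change was 1.64 ± 0.12 (SE; edgeR adjusted p = 9.36e-07). Both libraries stood apart in markers of other cells, among them neural ones in circSOD2-sh replicate 2 and smooth muscle ones in both. Without both libraries the log2 fold change was 1.50, so the rise was nearly as large without them. The values of miR-100-5p and miR-99b-5p without both libraries were 2.69 and 0.70.

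Because miR-99a-5p differs from miR-100-5p by 1 base, its value is uncertain: how the authors assigned reads with a mismatch is not given in the sources used here. The counts of miR-99a-5p were 10.6% to 13.8% of those of miR-100-5p in NC and 4.64% to 6.68% in circSOD2-sh. If 1% of the miR-100-5p counts in each library were taken from miR-99a-5p, its log2 fold change became 1.47. With 2% it became 1.22, and both kept an adjusted p under 0.05. With 4% it became 0.14 and no longer passed the test (edgeR adjusted p = 0.761), and removal of 4.14% made the 2 group means equal. The share of reads that was misassigned was not tested. No other row of the table had the same counts as a family member in every library, a check that cannot detect reads shared in part. Summed, the 3 arms with the family seed had a log2 fold change of 2.43, and 2.34 without NC replicate 4 and circSOD2-sh replicate 2. This sum is free of how reads were divided among the arms only if each read was counted in 1 row, which was not tested. Outside the family, miR-199a-3p and miR-199b-3p had the same values in every library.

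**Figure D1:**
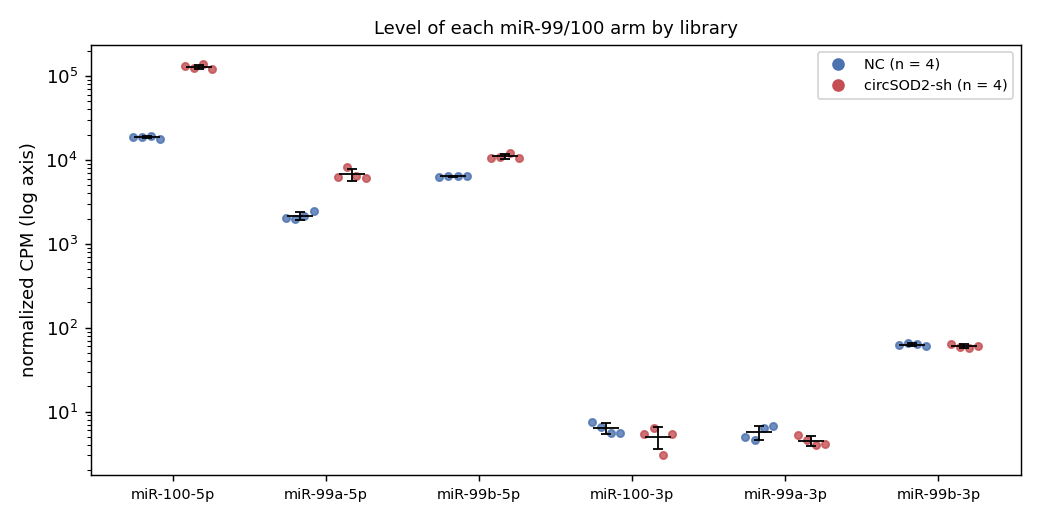
Normalized CPM (log axis) of each family arm in the 4 NC (blue) and 4 circSOD2-sh (red) libraries, where points are libraries, black lines are means and bars are SD. The 3 arms on the left, all 5p, are separated between the groups, whereas the points of the 3 arms on the right, all 3p, overlap.

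The 3p arms were scarce, and their groups overlapped. The arm miR-99b-3p had 62.9, 65.1, 63.8 and 60.2 normalized CPM in NC and 63.9, 59.3, 57.8 and 61.2 in circSOD2-sh with no library apart. The log2 fold change was -0.06 ± 0.09 (SE; interval -0.27 to 0.15; edgeR adjusted p = 0.596), and that interval does not reach the 0.80 of its 5p partner. The arm miR-100-3p was counted 49, 43, 33 and 25 times in NC and 32, 36, 15 and 30 times in circSOD2-sh. In normalized CPM it was 7.52, 6.62, 5.63 and 5.62 against 5.44, 6.36, 3.01 and 5.34, and its log2 fold change was -0.33 ± 0.23 (SE; interval -0.85 to 0.19; edgeR adjusted p = 0.232).

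The arm miR-99a-3p was counted 32, 30, 37 and 30 times in NC and 31, 26, 20 and 23 times in circSOD2-sh, so that counting error alone is sizeable. Its normalized CPM was 4.91, 4.62, 6.31 and 6.74 against 5.27, 4.59, 4.01 and 4.09, and its log2 fold change was -0.32 ± 0.19 (SE; interval -0.74 to 0.11; edgeR adjusted p = 0.169). The sign of the 3p arms depended on the scaling. With library totals their log2 fold changes were 0.64 for miR-100-3p, 0.65 for miR-99a-3p and 0.91 for miR-99b-3p, all called higher. Relative to the median of all miRNAs under that scaling they were -0.33, -0.31 and -0.05. The 5p arms stood 2.80, 1.65 and 0.80 above that median for miR-100-5p, miR-99a-5p and miR-99b-5p, close to their values after TMM. A change of scaling shifts all log2 fold changes nearly alike, so this closeness was fixed in advance and is no separate check.

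The family also changed its place in the pool of known miRNAs, a measure that leaves the predicted miRNAs aside. Within each library, miR-100-5p held rank 6 by counts among known miRNAs in all 4 NC libraries and held rank 1 or 2 in circSOD2-sh. It made up 3.46% ± 0.15 of the known counts in NC and 18.9% ± 1.36 in circSOD2-sh (SD, n = 4 each). The product miR-99b-5p moved from ranks 17 to 18 to ranks 11 to 13, and miR-99a-5p from ranks 33 to 37 to ranks 17 to 23. The 3p arm miR-99b-3p ranked 147 to 153 in NC, against 154 to 173 in circSOD2-sh. The whole family held 5.05% ± 0.20 of the known counts in NC and 21.5% ± 1.36 in circSOD2-sh. In bulk samples such as these, a change in the number of cells with a miRNA and a change in its amount per cell cannot be told apart.

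**Figure D2:**
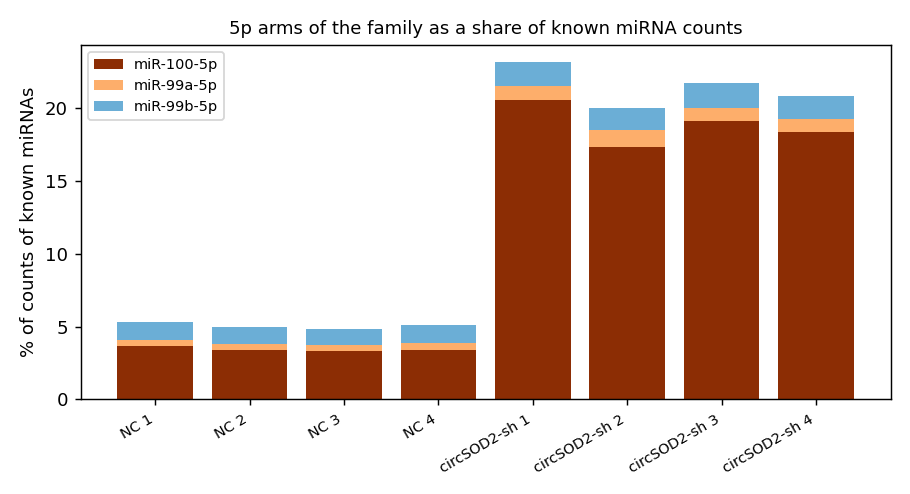
Counts of the 3 family 5p arms as a percentage of the counts of all known miRNAs in each library, stacked by arm. The bars reach about 5% in the NC libraries and 20.0% to 23.2% in the circSOD2-sh libraries, and most of the difference is miR-100-5p.

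Within the family the balance of the 5p arms moved toward miR-100-5p. Of all family counts it held 66.8% to 69.5% in NC, against 86.5% to 88.6% in the circSOD2-sh libraries. The share of miR-99b-5p went from 23.3% ± 0.48 to 7.50% ± 0.24, although its own level rose. The share of miR-99a-5p went from 7.91% ± 0.89 to 4.59% ± 0.80. All 3p arms together held 0.275% ± 0.0038 in NC and 0.0477% ± 0.0044 in circSOD2-sh (SD, n = 4 each).

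Ratios between members of the same arm do not depend on library scaling apart from the 0.5 normalized CPM added to each, and 6 pairs were compared by exact two-sided permutation tests. The log2 ratio of miR-100-5p to miR-99b-5p was 1.61, 1.54, 1.59 and 1.49 in NC and 3.63, 3.50, 3.51 and 3.55 in circSOD2-sh, a change of 1.99. The ratio of miR-100-5p to miR-99a-5p was 3.23, 3.24, 3.16 and 2.86 in NC and 4.42, 3.90, 4.43 and 4.35 in circSOD2-sh, a change of 1.15. The ratio of miR-99a-5p to miR-99b-5p changed by 0.84, from a mean of -1.56 to -0.72. This last change depended on the assignment of reads to miR-99a-5p, and it was 0.40 with 2% of the miR-100-5p counts taken away and -0.88 with 4%, the groups then overlapping. In these 3 pairs the groups did not overlap. Each exact permutation p was 0.0286, the smallest that 4 against 4 samples can give, and was 0.0571 after adjustment over the 6 pairs, which misses 0.05. The ratios of the 3p arms overlapped between the groups, with changes of -0.05 for miR-100-3p to miR-99a-3p, -0.28 for miR-100-3p to miR-99b-3p and -0.23 for miR-99a-3p to miR-99b-3p (exact permutation p = 0.857, 0.229 and 0.2).

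The 5p and the 3p product of a hairpin come from the same precursor, so their ratio within a library is a further measure that scaling does not move. It rose for all 3 family hairpins. For miR-100 the ratio of counts was 2519, 2842, 3394 and 3189 in NC and 24287, 19556, 45992 and 22995 in circSOD2-sh. The log2 ratio, with 0.5 normalized CPM added to each arm, rose by 3.13 (95% confidence interval 2.60 to 3.66; limma adjusted p = 2.12e-06). For miR-99a the ratio of counts was 410, 432, 339 and 367 in NC and 1174, 1810, 1600 and 1474 in circSOD2-sh, and the log2 ratio rose by 1.93 (interval 1.58 to 2.28; limma adjusted p = 3.25e-06). The doubt over reads shared with miR-100-5p carries over to this ratio. With 1%, 2% and 4% of the miR-100-5p level taken from miR-99a-5p the change was 1.75, 1.48 and 0.21, and the last did not pass (limma adjusted p = 0.685).

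For miR-99b the ratio of counts was lowest, 98.7, 99.3, 99.7 and 106 in NC and 167, 185, 210 and 171 in circSOD2-sh. Its log2 ratio rose by 0.85 (interval 0.59 to 1.12; limma adjusted p = 1.48e-04). The groups were apart for each hairpin. Such a gain of the 5p arm was called for 30.8% of the 117 hairpins for which each arm passed the filter, and 27.4% had every circSOD2-sh library above every NC library. The median change over these hairpins was -0.01, and the median absolute change was 0.60. By size of the gain, miR-100 stood at place 6, miR-99a at place 11 and miR-99b at place 23 of 117. Without NC replicate 4 and circSOD2-sh replicate 2 the changes were 3.30, 1.82 and 0.87. The denominators for miR-100 and miR-99a are at most 49 reads, which limits the precision of their ratios.

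**Figure D3:**
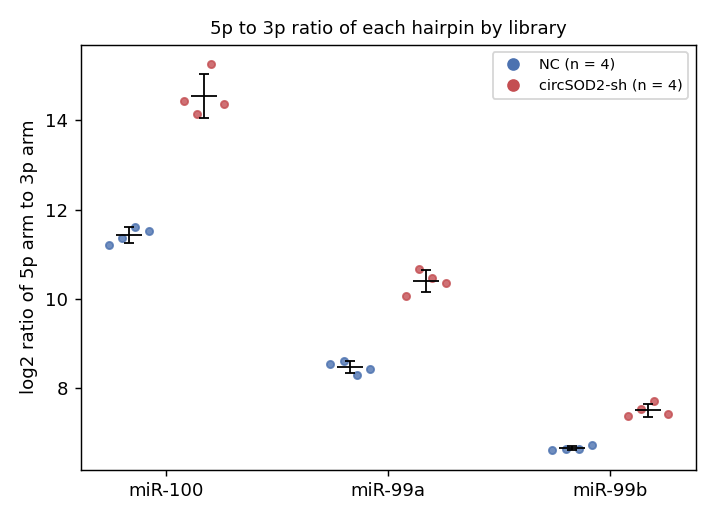
Log2 5p to 3p ratio of each family hairpin in the 4 NC (blue) and 4 circSOD2-sh (red) libraries, with black lines for means and bars for SD. All red points lie above all blue points for each hairpin, with mean changes of 3.13, 1.93 and 0.85.

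**Figure D4:**
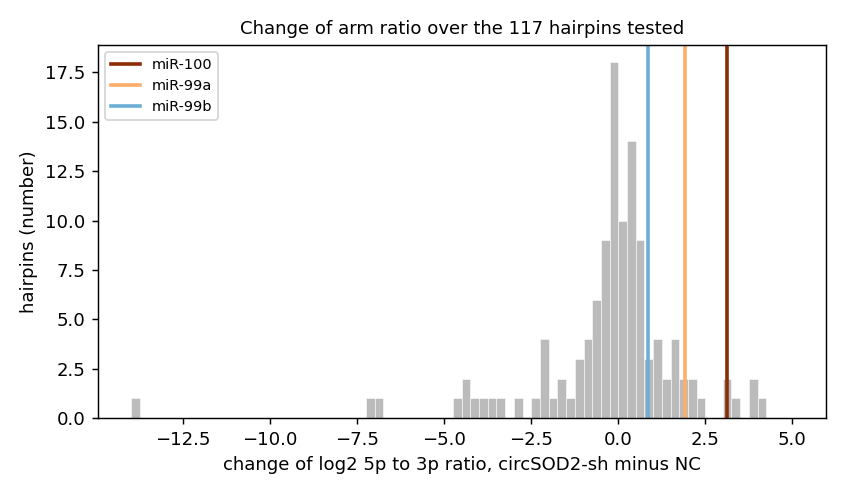
Number of hairpins by the change of the log2 5p to 3p ratio (circSOD2-sh minus NC) over the 117 hairpins tested, with vertical lines at the 3 family hairpins. The family lies on the side where the 5p arm gained, and other hairpins lie beyond miR-100 on that side.

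After TMM scaling the let-7 and miR-125 products of the same clusters moved in both directions. Of the 11 cluster neighbours, all of which were tested, 5 were higher and 5 lower in circSOD2-sh, with a median log2 fold change of -0.07, beside 33.3% higher and 32.4% lower among all miRNAs. With library totals 9 were higher and none lower, with a median of 0.89, beside 68.5% higher, 17.7% lower and a median of 0.96 among all miRNAs. The family 5p arms and the miR-125 5p products rose together, while none of the let-7 5p products was called higher after TMM scaling. The product miR-125b-5p, made from both the MIR100 and the MIR99A cluster, had 11.2, 9.85, 10.9 and 101 normalized CPM in NC and 11511, 13878, 12868 and 12656 in circSOD2-sh. It rose by 8.60 ± 0.95 on the log2 scale (SE; edgeR adjusted p = 2.27e-05), and by 10.17 without NC replicate 4, the library in which it was highest among the controls. The product miR-125a-5p of the MIR99B cluster rose by 2.09 on the log2 scale, with means of 1721 ± 165 normalized CPM in NC and 7315 ± 698 in circSOD2-sh.

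The 3p partners of the miR-125 products went the other way after TMM scaling. The arm miR-125b-1-3p, which comes from the MIR100 cluster alone, went from 1460 ± 12.6 to 674 ± 36.8 normalized CPM, and its log2 fold change was -1.11. The arm miR-125b-2-3p of the MIR99A cluster had -0.36 and miR-125a-3p had -1.07. All 3 passed the test as lower. With library totals these values were -0.15, 0.61 and -0.10, so the first and last no longer passed and miR-125b-2-3p was called higher. Within the MIR99B cluster the log2 5p to 3p ratio of miR-125a rose by 3.16 and that of miR-99b by 0.85, both measured inside each library.

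The let-7 arms showed the reverse pattern. The tumour suppressor let-7a-5p, which also arises from other loci, had a log2 fold change of -0.62 and let-7e-5p of -0.65, both called lower after TMM, but 0.35 and 0.32, called higher, with library totals. The product let-7c-5p of the MIR99A cluster had -0.07 and was not called (edgeR adjusted p = 0.761), but had 0.89 and was called higher with library totals. Its values, like those of miR-99a-5p, were highest in NC replicate 4 (326 normalized CPM) and circSOD2-sh replicate 2 (372), and without both it had -0.31 and was called lower. The 3p arms let-7a-2-3p and let-7e-3p rose by 2.18 and 1.54 on the log2 scale. The arm let-7c-3p had 0.70, and leaving out any of NC replicates 1, 2 and 4 or circSOD2-sh replicates 1, 2 and 3 lost that call. The log2 5p to 3p ratio fell by 2.07 for let-7e (limma adjusted p = 1.58e-05), the opposite direction to miR-99b, whose hairpin lies next to it. That of let-7c changed by -0.74 (limma adjusted p = 0.0718).

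**Figure D5:**
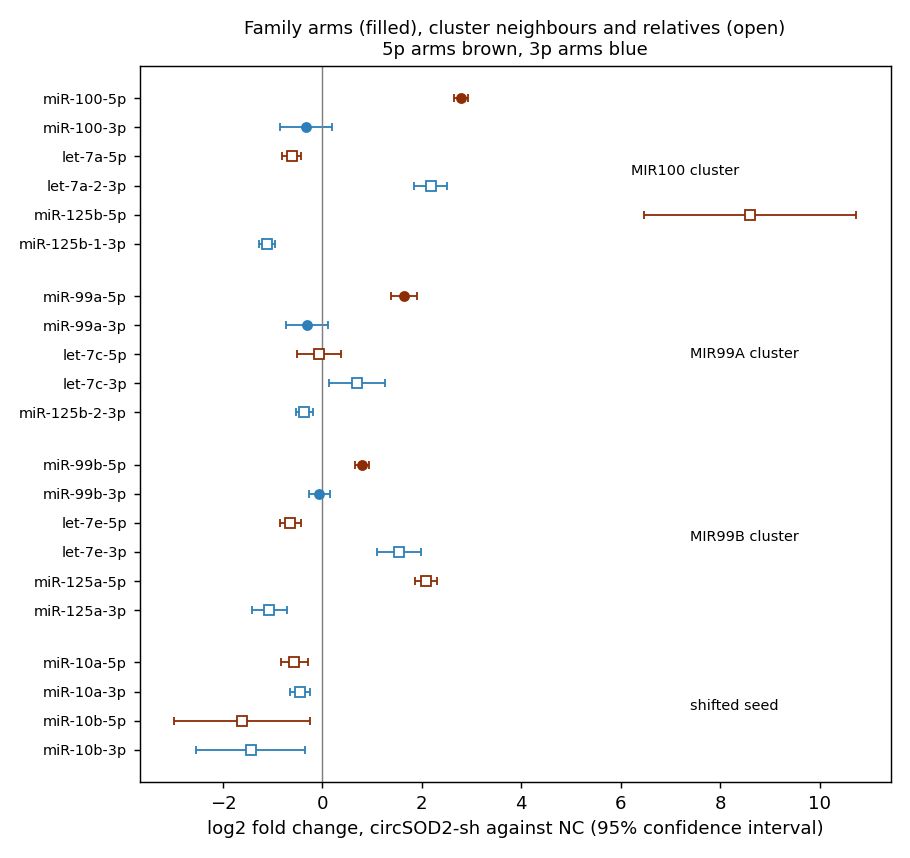
Log2 fold change of circSOD2-sh against NC with 95% confidence intervals after TMM scaling, for family arms (filled circles) and for cluster neighbours and miR-10 relatives (open squares), with 5p arms in brown and 3p arms in blue. In the family and in miR-125 the 5p arm lies to the right of its 3p partner, whereas in let-7a, let-7c and let-7e the 3p arm lies to the right.

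The miR-10 relatives, chosen as resembling the family with a different seed, were not higher after TMM scaling. All 4 arms tested were called lower, beside 32.4% of all miRNAs tested. With DESeq2, with the replicate block or with known miRNAs only, 3 were called lower. With factors computed without the family 5p arms, 2 were. The product miR-10a-5p had means of 14409 ± 1467 normalized CPM in NC and 9756 ± 1602 in circSOD2-sh and a log2 fold change of -0.56, while miR-10a-3p had -0.45. With library totals both were called higher instead, at 0.40 and 0.52. The product miR-10b-5p had 236, 271, 304 and 1657 normalized CPM in NC and 149, 214, 255 and 186 in circSOD2-sh, so that NC replicate 4 stood far above the rest. The fitted log2 fold change was -1.62, and -0.47 without that library. Leaving out circSOD2-sh replicate 1 or 4 lost its call. The arm miR-10b-3p had -1.44, and -0.81 without NC replicate 4, and with library totals neither miR-10b arm passed. The log2 5p to 3p ratio of miR-10a changed by -0.13 (interval -0.49 to 0.23), unlike the ratios of the family.

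Among 457 known miRNAs outside the family that passed the filter, those with the profile nearest to miR-100-5p over the 8 libraries were miR-362-5p, miR-501-5p, miR-766-3p, miR-26a-1-3p and miR-330-3p. Nearness was measured as the root mean square distance between centred log2 profiles and was 0.164 to 0.257. The closest, miR-362-5p, had a mean of 35.3 ± 4.63 normalized CPM in NC and 289 ± 30.4 in circSOD2-sh. Of the others, miR-766-3p and miR-330-3p had log2 fold changes of 2.64 and 2.71, beside 2.79 for miR-100-5p. The remaining 2 are near only through the 1 normalized CPM added before the log, which compresses low levels, and their profiles are not alike on a scale of ratios. Of these, miR-26a-1-3p was at 0 counts in every NC library and had 23, 21, 23 and 36 counts in circSOD2-sh, and miR-501-5p had 2 counts in 1 NC library and none in the others. The nearest to miR-99a-5p were miR-30b-5p at a distance of 0.070, miR-424-3p and miR-7974. Those nearest to miR-99b-5p were miR-331-3p at 0.097, miR-21-3p and miR-301b-5p. The 8 libraries share 2 conditions and the same scaling, so these distances describe only how alike the levels were.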

How the data were processed

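Small RNA libraries of 4 NC and 4 circSOD2-sh samples were analysed. The authors deposited raw read counts per mature miRNA, and CPM whose denominator exceeds the sum of the listed counts. The submitters' processing notes name FastQC 0.11.2, Trimmomatic 0.36, Bowtie 1.1.1 and GRCh38; mismatch settings are not given in the sources used here. A deposited table of the authors' comparison (mean CPM, log2 fold changes, p-values) was not used. Columns were matched to samples by name, and no column was left unassigned.

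Counts were fitted with edgeR 4.0.16 in R 4.3.3: filterByExpr with a minimum count of 10, TMM, quasi-likelihood testing (prior count 0.125), and p-values adjusted over all miRNAs tested by Benjamini-Hochberg. Arm ratios were tested with limma 3.58.1 after adding 0.5 normalized CPM to each arm, and pairs of members by exact permutation (Python 3.11.15, scipy 1.17.1, pandas 2.3.3, matplotlib 3.10.9). The profiles compared for likeness were log2 of normalized CPM plus 1. DESeq2 1.42.0, other scalings, filters and constants, limma on log2 of the deposited CPM and each library left out were alternatives. The fits were tested on simulated data in which the most abundant miRNAs did not change. That simulation therefore could not test how a dominant species that differs between the groups affects the scaling.

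Members and lists were chosen with earlier results of these data known. The 6 arms were named in full, with the 5 known miRNAs nearest in profile to miR-100-5p, the 3 nearest to miR-99a-5p and to miR-99b-5p, and the cluster and miR-10 lists. Libraries of a group differed beyond sampling noise (chi-square per degree of freedom of 3.78 to 250.2), so each counted as 1 sample. A count at or under the floor of 3 gives no fold.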

Additional observations from a re-analysis of the deposited data

Results flagged for a closer look

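A library stood apart from the other 3 of its group in 3 of the 30 groups of values examined, where chance gives about 1 in 20. In circSOD2-sh replicate 2, miR-99a-5p reached 8307 normalized CPM, above the 6031 to 6419 of the remaining libraries. In the same library the log2 ratio of miR-100-5p to miR-99a-5p was 3.90 against 4.35 to 4.43. That library was also high in summed neural, smooth muscle, leukocyte and erythroid markers, the leukocyte sum mostly through miR-142-5p and miR-150-5p. Any part of other RNA sources in these values was not tested. In NC replicate 4 the log2 5p to 3p ratio of miR-99b was 6.71 against 6.61 to 6.63, a small gap in a narrow group.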

How the results depend on the processing

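The 5p arms kept their direction and their call in all alternatives run but 1, with log2 fold changes from 2.61 to 3.76 for miR-100-5p and from 0.60 to 1.76 for miR-99b-5p. The exception was miR-99a-5p less 4% of the miR-100-5p counts, an alternative added after seeing the data, at 0.14; its other values were 1.22 to 2.61. The gain in 5p to 3p ratio kept its call in 13 alternatives for each hairpin (other constants, unscaled counts, the replicate block and libraries left out), from 2.89 to 3.30 for miR-100, 1.82 to 2.04 for miR-99a and 0.79 to 0.89 for miR-99b. With the 4% removal, run on it after seeing the data, the miR-99a gain was 0.21 and lost its call. The change in the ratio of miR-99a-5p to miR-99b-5p was 0.40 with 2% removed and -0.88 with 4% removed. Its unadjusted exact permutation p was 0.0286 in the main result and 0.0571 with 2% removed. After adjustment over the pairs, the main result had already missed the threshold. The other 5p pair ratios kept their direction in the alternatives run.

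All 3 of the 3p arms reversed under 4 alternatives. Of these, the limma fits change the test, the input and the added constant along with the scaling, and the cause was not tested. For miR-99a-3p, miR-99b-3p and miR-100-3p the log2 fold changes were 0.65, 0.91 and 0.64 with library totals, 0.52, 0.78 and 0.50 with upper quartiles, 0.41, 0.75 and 0.38 with limma on log2 CPM plus 1, and 0.49, 0.77 and 0.44 with limma on log2 CPM plus 0.1. Family arms called higher then numbered 6, 5, 5 and 5 in place of 3. The miRNAs called higher and lower numbered 613 and 158, 570 and 160, 559 and 163, and 553 and 163, in place of 298 and 290. With a mean of at least 50 counts, 149 were called higher and the scarcer 3p arms, miR-100-3p and miR-99a-3p, were not tested. With known miRNAs only, 123 were higher and 123 lower. With known miRNAs only and factors computed without the family 5p arms, 2 changes at once and also added after seeing the data, 131 were higher and 92 were lower. There miR-99b-3p, alone of the 3p arms, also reversed, to 0.079. Fewer miRNAs enter these last 3 fits.

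Leaving out 1 library at a time gave 2.61 to 2.75 for miR-100-5p, 1.42 to 1.67 for miR-99a-5p and 0.60 to 0.75 for miR-99b-5p. No clear sign of pairing by replicate number was seen, but so few correlations cannot exclude it. Deviations of same-numbered libraries correlated at 0.26, -0.10, 0.10 and -0.17, and only replicates 1 and 3 correlated best with their own number. With the replicate block, 296 were higher and 278 lower, the 5p arms had 2.79, 1.64 and 0.80 (miR-100, miR-99a, miR-99b), and no family call changed. The depth limits miR-100-3p and miR-99a-3p, at 15 to 49 counts per library.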
